A study of Mus musculus with 3 samples.

Results

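The genes described are 38 markers and effectors of macrophages and of the complement system, found by gene symbol among 19381 genes of a bulk RNA sequencing table of mouse incisor. All 38 were listed, and they were sorted by their known roles into 15 core macrophage genes, 7 genes of resident-type macrophages, 4 lipid-handling genes, 3 genes of efferocytosis and heme breakdown, and 9 complement genes. The tissue was the proximal incisor mesenchyme of 1 month old mice that carried Gli1-CreER and floxed alleles of both Arid1a and Arid1b (Arid1afl/fl and Arid1bfl/fl), called DKO. All mice received tamoxifen, 1.5 mg for each 10 g they weighed, and tissue was taken 4 days later. There were 3 DKO libraries, and control mice were not analysed here, so nothing below compares genotypes. The CreER is driven by the Gli1 promoter, which in this tissue marks mesenchymal stem cells, and bulk values mix recombined and other cells, macrophages among them. Nothing in the labels says that the libraries came from separate animals, so an SD over n = 3 measures only the spread between libraries, which may be technical.

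Macrophages are phagocytes of myeloid origin that live in most tissues, where they clear dying cells and debris. Tissue-resident macrophages typically carry scavenger and endocytic receptors such as the mannose receptor, and their survival depends on signals through the CSF1 receptor. Complement is a chain of plasma and tissue proteins. In the classical route it starts with C1, a complex of C1q with the proteases C1r and C1s. Of these C1s cleaves C4, which leads to cleavage of C3. In most tissues C1q is made mainly by macrophages, whereas C1r and C1s are also made by fibroblasts.

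Values are gene counts that the authors scaled, called normalized units below, and are given in the order of replicates 1, 2 and 3. Each library had the same upper quartile, 44.7, and the totals were 986401, 958773 and 966163 units. Together the 38 genes made up 0.294%, 0.354% and 0.383% of those totals. If the smallest value in a library stands for 1 read, which could not be settled, counting error alone would be 4.83% to 5.40% at a value of 10 and 1.53% to 1.71% at 100. Markers of the labelled tissue were abundant, with Pdgfra at 568, 624 and 637 and Prrx1 at 559, 675 and 623 units, both picked after their values were seen. Replicate 1 stood apart from the others in interferon-stimulated genes. Their 12 fixed members summed to 2129, 521 and 544 units, and all 11 with a mean of at least 10 were highest in replicate 1. This list was chosen with earlier results of these data known, so the count is a description.

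Transcripts of macrophages were present in every library. Of the 38 genes, 31 had a mean of at least 10 units, against 53.6% of all listed genes. These were 14 of 15 core macrophage genes, 5 of 7 resident-type, 2 of 4 lipid-handling, all 3 efferocytosis and heme genes, and 7 of 9 complement genes. C5ar1 lay just above that level at 10.3 ± 0.854 (SD, n = 3), and Folr2 lay just below it at 9.36 ± 1.98. The members below it were Cd14, Folr2, Timd4, Trem2, Gpnmb, C3 and C4b.

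**Figure D1:**
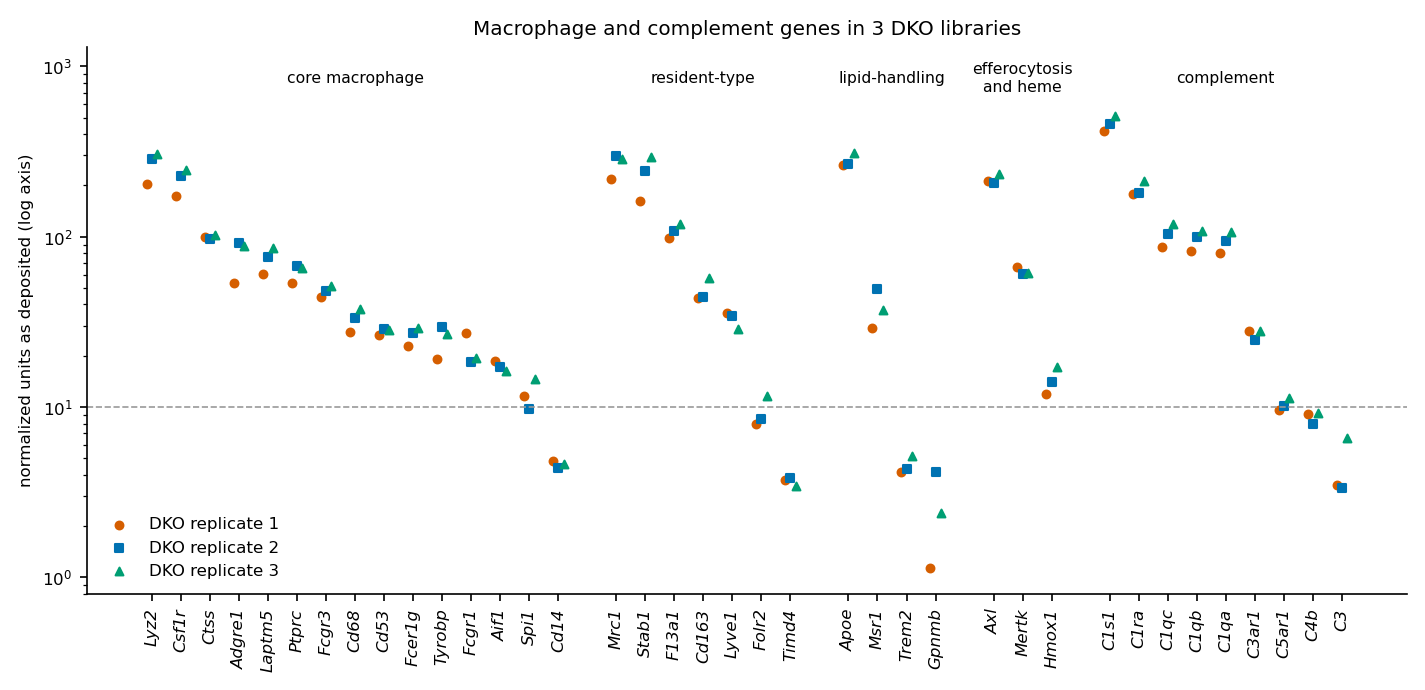
Normalized units (log axis) of the 38 genes in DKO replicates 1, 2 and 3, by role and in order of their mean. The dashed line marks 10 units; levels span from Gpnmb at 1.14 in replicate 1 to C1s1 at 514 in replicate 3.

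Among the core macrophage genes, Lyz2, which encodes a lysozyme of myeloid cells, was at 204, 285 and 308 units. Csf1r, the receptor for CSF1 and IL-34, was at 173, 228 and 246 units. Adgre1, which encodes the F4/80 antigen, was at 53.2, 92.5 and 88.4 units. All of these were lowest in replicate 1 by a wide margin, with replicates 2 and 3 close to each other. In replicate 1 they stood at 0.688, 0.733 and 0.588 of the mean of the other libraries. Ptprc, the pan-leukocyte phosphatase CD45, had a smaller gap, at 53.7, 67.6 and 65.2 units, as did the endosomal glycoprotein gene Cd68 at 27.6, 33.4 and 37.4. Laptm5, a lysosomal membrane protein of blood cells, was at 60.04, 75.9 and 86.0 units.

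Some other core genes hardly moved or went the other way, and Spi1 varied in another order. Ctss, a lysosomal cysteine protease used in antigen processing, was at 99.1, 97.5 and 101.9 units, a coefficient of variation of 2.22% that was the lowest among the 31 genes. Cd53, a tetraspanin of leukocytes, was at 26.6, 28.7 and 28.2 units. Aif1, the calcium-binding protein IBA1, was at 18.6, 17.1 and 16.3 units, highest in replicate 1. Spi1, which encodes the myeloid transcription factor PU.1, was at 11.6, 9.75 and 14.6 units and lowest in replicate 2. Cd14, a co-receptor for bacterial lipopolysaccharide, was low in every library, at 4.81, 4.40 and 4.64 units.

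The Fc receptors for antibody split between libraries. Fcgr1, the high-affinity IgG receptor, was at 27.1, 18.4 and 19.3 units, 1.44 times the mean of the others in replicate 1. Fcgr3, a low-affinity activating receptor, was at 44.1, 47.9 and 51.4 units, lowest in replicate 1. Fcgr4 and Fcgr2b, which were picked after their values were seen, were at 9.23, 2.88 and 3.40 units and at 33.6, 33.4 and 44.2 units. Fcgr1 and Fcgr4 thus were high in the library that was also high in interferon-stimulated genes, and the part of those in this difference was not tested. The signalling adaptors Fcer1g and Tyrobp (DAP12), which pair with Fc receptors and with TREM2, were at 22.8, 27.0 and 29.2 and at 19.02, 29.6 and 26.7 units.

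Resident-type genes ranged from some of the highest to some of the lowest values among the members. Mrc1, the mannose receptor CD206 (chromosome 2, 14229392 to 14332057, mm10), was at 217, 297 and 287 units. Stab1, the scavenger receptor stabilin-1 (chromosome 14, 31139013 to 31168641), was at 162, 244 and 295 units, the widest relative spread of the 31 genes, with a coefficient of variation of 28.6%. F13a1, the clotting factor XIII A subunit that resident macrophages express, was at 98.3, 108.1 and 118.5 units, and Cd163, the haptoglobin-hemoglobin scavenger receptor, at 43.5, 44.2 and 57.1. Lyve1, a hyaluronan receptor, ran against them at 35.8, 34.1 and 28.8 units, lowest in replicate 3. Folr2, a folate receptor, was at 7.98, 8.46 and 11.6 units, and Timd4, a phosphatidylserine receptor, was at 3.73, 3.82 and 3.45.

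Stab1 and Lyve1 are also made by endothelial cells, so endothelial markers are given beside them. All 10 endothelial genes were highest in replicate 3, with summed levels of 395, 403 and 531 units, led by Cdh5 at 76.0, 81.2 and 107.5, Vwf at 60.5, 67.9 and 106.6 and Kdr at 66.3, 70.1 and 86.3. Of 6 lymphatic endothelial genes, 2 had a mean of at least 10, and summed levels were 54.97, 49.96 and 55.3 units. Those with the highest means were Pdpn at 33.9, 28.4 and 27.6, Flt4 at 13.4, 13.1 and 18.7 and Reln at 6.52, 7.01 and 7.57. The lymphatic identity factor Prox1 was below 1 unit in every library, at 0.583, 0.962 and 0.955, as was the chemokine Ccl21a at 0.029, 0.048 and 0.025; both were picked after their values were seen. The part of endothelial cells in the Stab1 and Lyve1 values was not tested. Stab1 overlaps the opposite-strand gene Nt5dc2 by 112 bases, and Csf1r overlaps Hmgxb3 by 873 bases. C1s1 overlaps the antisense gene Gm16567, with a mean of 0.661 units, by 11400 bases, and Folr2 overlaps the antisense gene Gm10602, with a mean of 3.43 units, by 2784 bases. The strand setting of the counts is not given in the sources used here, so reads in those stretches cannot be told apart.

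The summed lipid-handling genes rested mostly on 1 gene. Apoe, the lipid-carrying apolipoprotein E (chromosome 7, 19696109 to 19699188), was at 262, 266 and 312 units and made up 86.0% of the summed level of its class. Msr1, a scavenger receptor for modified lipoproteins, was at 29.1, 49.6 and 37.0 units, highest in replicate 2. Trem2, a lipid-sensing receptor of macrophages and microglia, was at 4.14, 4.31 and 5.12 units in the 3 libraries. Gpnmb, a glycoprotein of lipid-laden macrophages, was at 1.14, 4.15 and 2.40 units. Apoe is also made by many cells other than macrophages, and it exceeded Trem2 by 6.10 ± 0.06 on the scale of log2(units per kilobase of exon + 1) (SD, n = 3). With the length of the longest coding transcript, which is shorter for Trem2 (1088 against 4946 bases), the difference was 5.28.

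Among genes of efferocytosis, the uptake of dying cells, Axl had the higher level per kilobase in every library. These receptor kinases recognise phosphatidylserine through the bridging proteins Gas6 and protein S. Axl was at 213, 206 and 233 units and Mertk at 66.4, 60.7 and 60.8, and both varied little. Per kilobase of exon Mertk lay below Axl by a log2 difference of -1.52 ± 0.13 (SD, n = 3). Which cells of this bulk tissue made the Axl and Mertk transcripts was not tested. Hmox1, the heme-degrading enzyme heme oxygenase 1, was at 11.9, 14.1 and 17.2 units. Of the bridging ligands, Gas6 was at 75.8, 72.6 and 117.7 units and Pros1, which encodes protein S, at 138, 153 and 159.

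Of the complement genes, those of the C1 complex had higher levels per kilobase in every library than C4b and C3, as the plot of levels per kilobase shows. C1s1, the C1s protease that cleaves C4 and C2, had the highest value of the 38 genes as deposited, at 415, 458 and 514 units. C1ra, the C1r protease that activates C1s, was at 179, 181 and 212 units. C4b and C3, which lie downstream of C1, were at 9.04, 7.93 and 9.19 and at 3.50, 3.35 and 6.55 units. C3 was highest in replicate 3, and its coefficient of variation was 40.4%, beside a counting error of 5.97% to 9.13% if the smallest value is 1 read. C3ar1 and C5ar1, the receptors for the fragments C3a and C5a, were at 27.8, 24.8 and 27.8 and at 9.64, 10.1 and 11.3 units. Near-identical copies can share reads with C4b, C1s1, C1ra and Lyz2, and how such reads were assigned is not known, so the values of these members are uncertain to that extent. The listed copies C4a, C1s2, C1rb and Lyz1, picked after their values were seen, had means of 0.492, 0.745, 0.681 and 0.299 units.

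The 3 chains of C1q, which assemble into 1 protein in equal numbers, were expressed at closely similar levels. C1qa was at 80.1, 94.3 and 106.0 units, C1qb at 82.2, 99.8 and 107.4, and C1qc at 86.9, 104.1 and 119.1. All chains were lowest in replicate 1 and highest in replicate 3. Their genes lie side by side on the minus strand of chromosome 4 (136880129 to 136898803, mm10), within 18.7 kb and with no other listed gene between them. Divided by the length of the longest protein-coding transcript, a measure chosen after seeing the data, the levels were 89.9 ± 12.5, 88.7 ± 11.9 and 85.9 ± 13.4 units per kilobase (SD, n = 3). With the length fixed in the design, the union of all annotated exons, C1qa differed from C1qb by 0.02 ± 0.03 on the log2 scale, but C1qb exceeded C1qc by 0.72 ± 0.05. The union counts 1931 bases for C1qc and the longest coding transcript 1203, so this difference rested on the length used and was 0.05 ± 0.05 with the latter.

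C1ra and C1s1 also lie together, on opposite strands of chromosome 6 with 6.90 kb between them. Per kilobase of exon C1ra stood at 0.451, 0.414 and 0.433 of C1s1, a log2 difference of -1.197 ± 0.061 (SD, n = 3). Of the other fixed pairs, all but C1qa and C1qb differed in the same direction in 3 of 3 libraries. C1qa minus C1qb was 0.027 and 0.046 in replicates 1 and 3 but -0.016 in replicate 2. C3 lay below C4b by a log2 difference of -0.45 ± 0.22, C3ar1 above C5ar1 by 0.53 ± 0.11, Mrc1 above Cd163 by 2.12 ± 0.23, Mrc1 above Lyve1 by 1.80 ± 0.35, and Fcer1g below Tyrobp by -0.30 ± 0.20, all on log2 of the level per kilobase plus 1. With the longest coding transcript the mean difference of Fcer1g from Tyrobp was -0.11 (exact permutation p = 0.5), and in replicate 1 Fcer1g was the higher, at 33.4 against 31.9 units per kilobase. Flipping the signs of the 3 differences in all ways, an exact two-sided permutation test run on 10 pairs, gave p = 0.25 (adjusted p = 0.278) for each pair but C1qa and C1qb, where p = 0.5. With n = 3 libraries 0.25 is the smallest p this test can give, so it cannot call any pair.

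**Figure D2:**
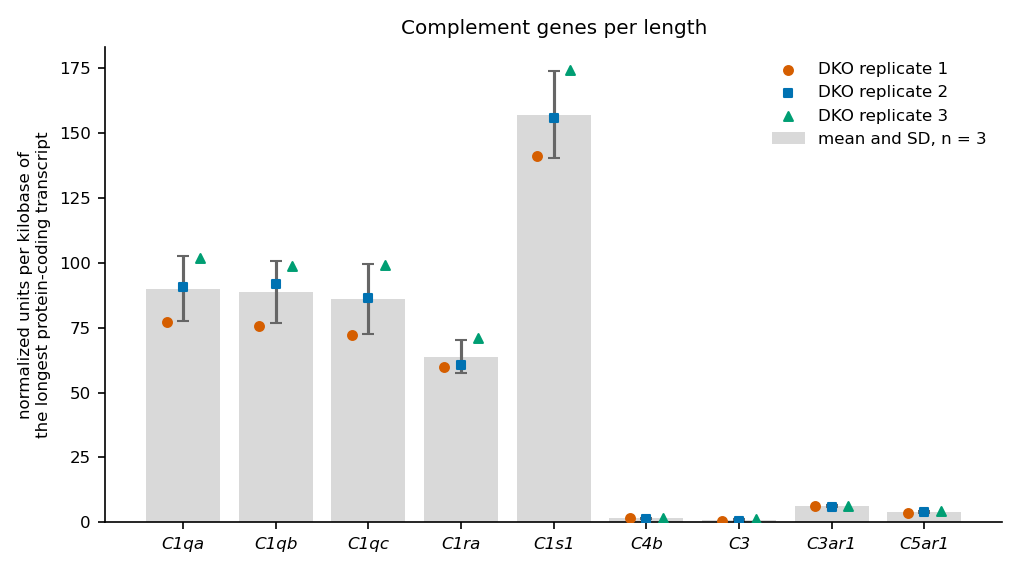
Normalized units per kilobase of the longest protein-coding transcript for 9 complement genes, with bars for the mean, error bars for the SD over 3 DKO libraries, and points for replicates 1, 2 and 3. C1qa, C1qb and C1qc stand at 89.9, 88.7 and 85.9, while C4b and C3 stand at 1.62 and 0.869.

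On the same scale of units per kilobase of the longest coding transcript, the members with the highest means were Lyz2 at 202 ± 41.5, Apoe at 199 ± 19.5 and C1s1 at 157 ± 16.7 (SD, n = 3). Lyz2 lay below Apoe in replicate 1 (155 against 186) and above it in replicates 2 and 3 (217 and 234 against 189 and 221). The C1q chains followed, then Ctss at 73.4 ± 1.63 and C1ra at 63.9 ± 6.23. Axl, Mrc1 and Csf1r were next, at 51.0 ± 3.33, 49.7 ± 8.06 and 45.9 ± 7.98. Mrc1 lay above Csf1r in replicates 1, 2 and 3, at 40.4, 55.2 and 53.4 against 36.9, 48.5 and 52.2. Axl lay above both in replicates 1 and 3 but below both in replicate 2, at 48.2. Tyrobp and Fcer1g, short transcripts that rank low as deposited, stood at 42.1 ± 9.19 and 38.6 ± 4.79. At the bottom of the order were C4b, C3 and Gpnmb, at 1.62 ± 0.129, 0.869 ± 0.351 and 0.692 ± 0.409.

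PU.1, the product of Spi1, binds purine-rich sites with a GGAA core near many myeloid genes. The letters GAGGAAG were searched on both strands of RefSeq promoters (GRCm38.p6), each from 250 bases before to 50 bases after a start. A promoter was found for 28 of the 38 genes. At least 1 promoter held the letters for 10 of these 28 genes (35.7%), against 15.4% of all genes with a promoter and 15.7% of those with a mean of at least 10 units. Over single promoters of 300 bases the shares were 34.3% of 35 and 13.6% of 32851. The genes were Axl, C1qc, Cd53, Ctss, F13a1, Fcgr1, Fcgr3, Laptm5, Mrc1 and Trem2, which made up 5 of 10 core macrophage genes with a promoter but 1 of 7 complement genes. A match is a run of letters and not a shown binding site.

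The stretches just before the start of 5 genes are shown because they set members with different patterns over the libraries beside each other. Mrc1 and F13a1 were lowest in replicate 1, Fcgr1 was highest there, Trem2 was low in every library, and C1qb held no match in its promoter. Capitals mark GAGGAAG or its reverse complement CTTCCTC, whose first base lies 36, 66, 56 and 41 bases before the RefSeq start for Mrc1, F13a1, Fcgr1 and Trem2. All are written 5′ to 3′ on the strand of the gene and come from chr2:14229264-14229391, plus strand (Mrc1), chr13:37050245-37050394, minus strand (F13a1), chr3:96293970-96294119, minus strand (Fcgr1), chr17:48346251-48346400, plus strand (Trem2) and chr4:136886201-136886350, minus strand (C1qb). The Mrc1 stretch ends before the first base of the gene in the deposited table. Mrc1 held 1 further match outside the stretch printed, and F13a1 held 1 past this start and 1 in its other RefSeq promoter. No other motif was searched.
Mrc1: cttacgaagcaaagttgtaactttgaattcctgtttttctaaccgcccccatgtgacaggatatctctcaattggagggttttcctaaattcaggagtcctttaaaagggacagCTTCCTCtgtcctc
F13a1: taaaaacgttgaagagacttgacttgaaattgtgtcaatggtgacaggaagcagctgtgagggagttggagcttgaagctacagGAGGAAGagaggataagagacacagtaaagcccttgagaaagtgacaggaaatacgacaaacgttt
Fcgr1: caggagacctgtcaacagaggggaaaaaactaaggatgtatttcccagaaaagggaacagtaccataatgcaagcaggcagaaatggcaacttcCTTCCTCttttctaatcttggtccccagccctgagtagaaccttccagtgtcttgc
Trem2: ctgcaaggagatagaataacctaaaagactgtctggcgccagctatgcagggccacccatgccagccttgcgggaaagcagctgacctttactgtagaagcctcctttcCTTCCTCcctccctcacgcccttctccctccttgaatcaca
C1qb: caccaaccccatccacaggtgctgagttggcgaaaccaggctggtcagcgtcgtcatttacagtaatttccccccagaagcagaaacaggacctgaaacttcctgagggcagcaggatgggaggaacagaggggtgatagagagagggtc
The same 7 letters thus stood before the start of genes that were lowest in replicate 1 and of 1 that was highest there.

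The members differed between libraries more than most genes, and replicate 1 was the low one. A gene was counted as lower or higher in a library where log2(value + 1) differed from the mean of the other libraries by more than 0.25, a 1.19-fold difference. Of the 31 members with a mean of at least 10, 15 were lower in replicate 1, against 8.98% of the 10388 genes at that level, and 1, Fcgr1, was higher, against 8.22%. The 15 were Adgre1, Cd68, Csf1r, Fcer1g, Laptm5, Lyz2, Ptprc and Tyrobp of the core genes, Mrc1 and Stab1 of the resident-type genes, Msr1, Hmox1 and all 3 C1q chains. In a bulk library fewer macrophages and less RNA per macrophage cannot be told apart. With only 1 library on one side there is no replicate check of this difference, and it has no test. The count followed a pattern already known from earlier results on these libraries and is a description.

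Read by order alone, 23 of the 31 members were lowest in replicate 1 (38.1% of all genes at that level), 6 in replicate 2 (27.8%) and 2 in replicate 3 (34.2%). The highest library was replicate 1 for 5 members (31.2%), replicate 2 for 6 members (34.2%) and replicate 3 for 20 members (34.6%). Replicate 3 was higher than the others by over 0.25 for 11 members (7.7% of all genes), among them Spi1, Cd163, Hmox1 and Stab1, and lower for 1, Lyve1 (7.46%). Replicate 2 was lower for Fcgr1 and Spi1 (6.27%) and higher for Adgre1, Msr1 and Tyrobp (5.75%). The median member ranged over 0.38 on the log2 scale between its lowest and highest library, against 0.19 for all genes at that level. Without replicate 1 these medians were 0.15 and 0.11.

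**Figure D3:**
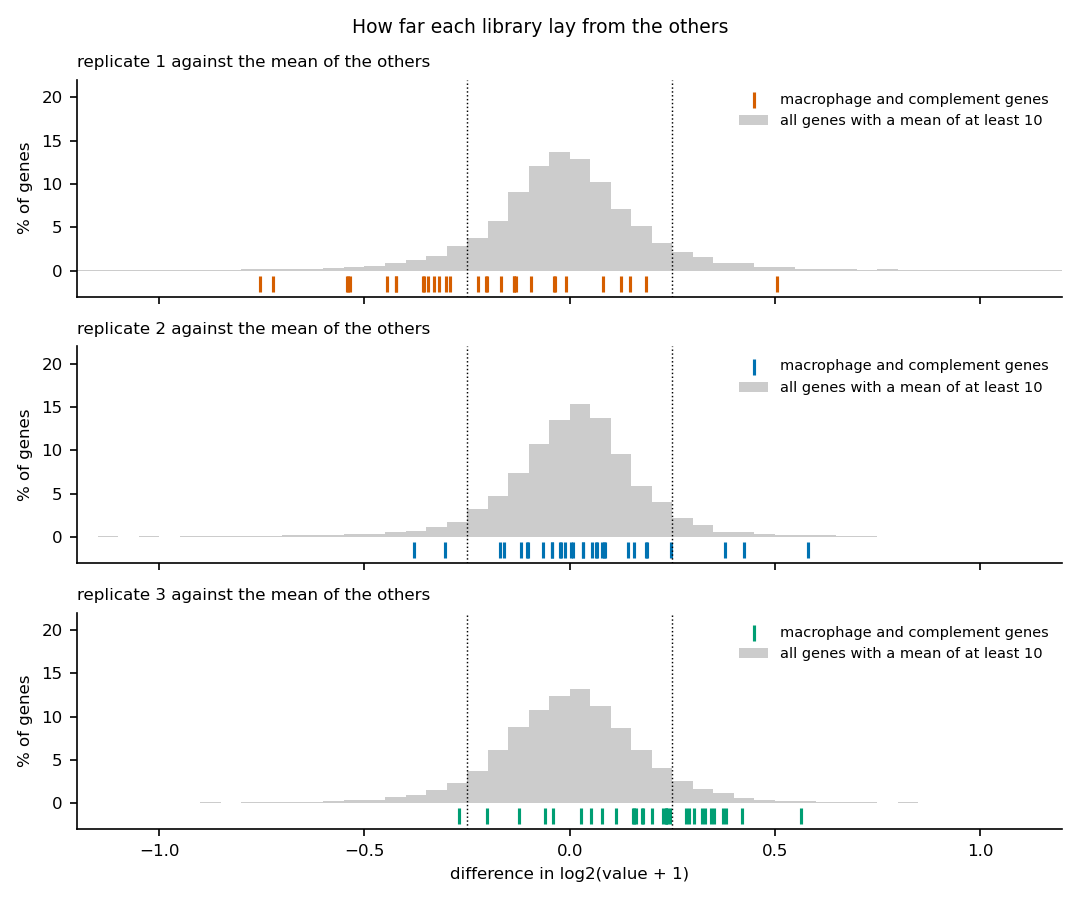
Difference of each library from the mean of the others in log2(value + 1), as the percentage of all 10388 genes with a mean of at least 10 (grey bars) and for the 31 members at that level (coloured ticks). Dotted lines mark 0.25 in either direction; 15 ticks lie below the lower line in replicate 1.

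By class, the shift was read from sums and from medians, which order the classes differently, and no difference between classes was tested. Summed core macrophage genes were at 846, 1063 and 1123 units, and replicate 1 stood 22.6% below the mean of the others. Summed resident-type genes were at 569, 739 and 802 units, 26.2% lower in replicate 1, a sum carried mainly by Mrc1 and Stab1, the 2 of 5 members called lower. Complement genes summed to 893, 984 and 1113 units, 14.8% lower, and C1s1 alone made up 46.4% of that sum. Lipid-handling genes, at 297, 324 and 356 units, were 12.8% lower. The efferocytosis and heme genes, at 292, 280.3 and 311 units, were 1.36% lower in replicate 1, and this difference turned around without replicate 3. Axl alone made up 73.8% of that sum, while Hmox1 was called lower in replicate 1, at 0.764 of the mean of the others. The part of macrophages in the Axl values was not tested. Over the members with a mean of at least 10, the median log2 difference of replicate 1 from the others was -0.30 for core macrophage, -0.20 for resident-type, -0.34 for lipid-handling (2 genes), -0.04 for efferocytosis and heme, and -0.22 for complement genes, against -0.01 for all genes.

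**Figure D4:**
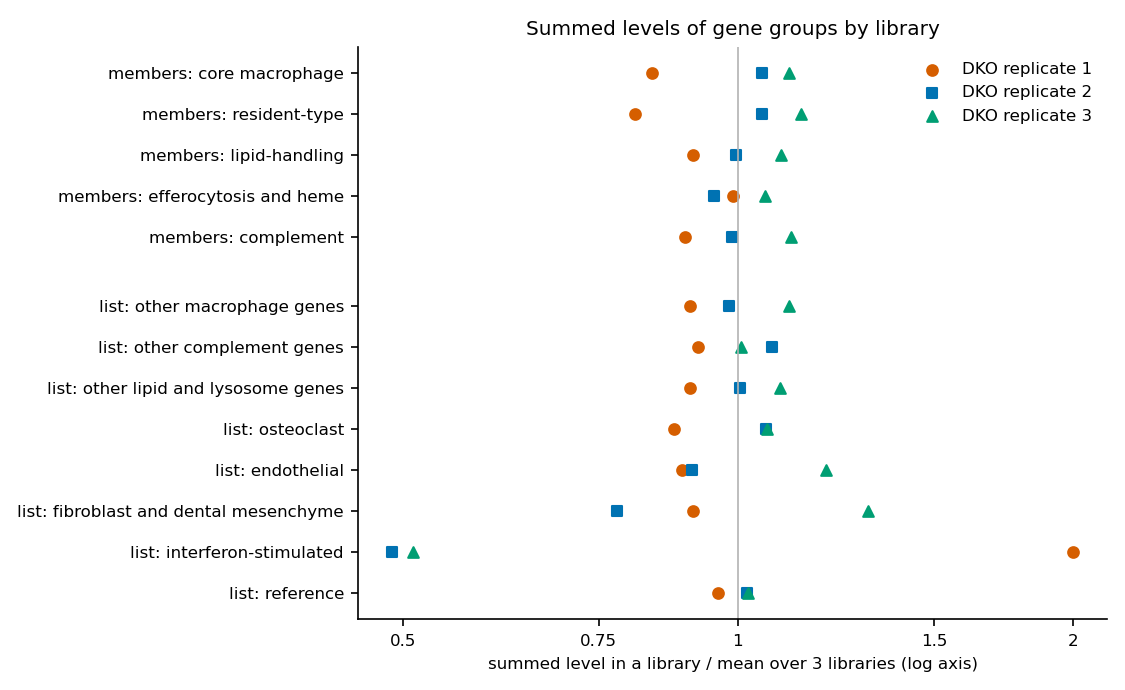
Summed level of each class of members and of 8 fixed lists in DKO replicates 1, 2 and 3, divided by the mean over the 3 libraries (log axis). Core macrophage and resident-type genes are lowest in replicate 1, where the interferon-stimulated list is highest.

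Other macrophage genes, from a fixed list of 37, gave the same order for some but not all members. Of 28 with a mean of at least 10, 9 were lower and 4 higher in replicate 1 by the rule above. The shares over all genes at that level were 8.98% and 8.22%. Those with the highest means were the transcription factor Maf at 151, 150 and 160.0 units, Tmem119 at 97.3, 102.4 and 125.9 and the actin-bundling protein gene Lcp1 at 89.4, 108.6 and 125.8. By that rule Lcp1 was lower in replicate 1 (log2 difference -0.38), while Maf (-0.04) and Tmem119 (-0.22) were not. Which cells of the tissue made these transcripts was not tested. Cd209f, a C-type lectin of macrophages, had a wider gap, at 10.0, 29.0 and 28.0 units. The monocyte markers differed, with Ly6c2 at 0.513, 0.648 and 0.659 units and the chemokine receptor Ccr2 at 13.003, 8.67 and 15.5 units, lowest in replicate 2. Clec4f, a marker of liver macrophages, was at 1.84, 0.797 and 0.629. Ly6c2, Ccr2 and Clec4f were picked after their values were seen.

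The remaining complement genes covered regulators and other starting points. Of 36 fixed genes 24 were listed and 17 had a mean of at least 10. Among these 17, 8 were lower and 0 higher in replicate 1, against 8.98% and 8.22% of all genes at that level. The highest means belonged to Calr, an endoplasmic reticulum chaperone that binds C1q, at 828, 1156 and 972 units, and Colec12, a scavenger collectin, at 524, 485 and 439. Fcna, the lectin-pathway protein ficolin A, was at 9.20, 22.4 and 22.1 units, a gap in replicate 1 like that of Cd209f. Cd59a, an inhibitor of the membrane attack complex, was at 20.996, 43.5 and 27.9 units. Serping1, the inhibitor of C1r and C1s, which was picked after its values were seen, was at 122, 149 and 193. The terminal component gene C6 was at 0.699, 0.165 and 0.326 units, also picked after its values were seen.

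Of 22 other lipid and lysosome genes 21 were listed and 17 had a mean of at least 10. Among these 17, 6 were lower and 0 higher in replicate 1, against 8.98% and 8.22% of all genes at that level. The list was led by the lysosomal protease gene Ctsb at 633, 651 and 755 units, the lipoprotein receptor gene Lrp1 at 490, 519 and 629, and Lamp1 at 422, 459 and 497. Of 8 macrophage ligands 6 had a mean of at least 10, with 2 lower and 1 higher in replicate 1. These are too few genes to set apart from the all-gene shares of 8.98% and 8.22%. The chemokine Cxcl12 was at 262, 377 and 402 units, and Cd47, the signal against uptake, was at 145, 113 and 126, highest in replicate 1. Csf1, the main ligand of Csf1r, was at 106, 115 and 121 units, whereas Il34, the alternative ligand, was at 2.71, 3.08 and 1.93. Csf1, Il34 and Gas6 were picked after their values were seen.

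Markers of other immune cells and of osteoclasts, which share genes with macrophages, were mostly below 10 units. Of 10 osteoclast genes 8 were listed and 5 had a mean of at least 10, with summed levels of 103.5, 125.1 and 125.3 units. Ctsk was at 39.7, 39.0 and 45.4, Acp5 at 26.7, 35.5 and 24.5, Nfatc1 at 16.4, 17.3 and 19.4, and Mmp9 at 8.16, 20.5 and 22.5 units, the last lowest in replicate 1 by a wide margin. The osteoclast genes Calcr and Oscar, picked after their values were seen, were below 0.5 units in every library. None of 9 neutrophil genes reached a mean of 10, and the 7 listed summed to 1.34, 8.02 and 3.59 units, led by S100a9, Ngp and S100a8. Of 11 lymphocyte genes 6 were listed and only Cd4 had a mean of at least 10, with summed levels of 13.05, 16.2 and 22.5 units, followed by Cd79b and Trac. Of 6 dendritic cell genes 5 were listed, none reached a mean of 10, and they summed to 6.35, 6.68 and 8.27 units, led by Zbtb46, Siglech and Ccr7. Of 7 mast cell genes 6 were listed and only Kit, which other cells also make, reached a mean of 10, at 117, 71.2 and 85.2 units, while Mcpt4 and Cma1 stayed below 1. Neutrophil, osteoclast, lymphocyte and dendritic cell sums were lowest in replicate 1 like those of the core macrophage genes. The lymphocyte sum rested mostly on Cd4, at 9.87, 12.7 and 19.3 units, and the neutrophil and dendritic cell sums were low in every library. Of the 5 osteoclast genes with a mean of at least 10, 1, Mmp9, was lower in replicate 1, against 8.98% of all genes. The part of these cells in the member values was not tested.

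Genes of the mesenchyme also differed between libraries, in both directions, and so did single reference genes. Of 10 fibroblast and dental mesenchyme genes, 2 were lower and 3 higher in replicate 1, against 8.98% and 8.22% of all genes. Their sum was lowest in replicate 2, at 18847, 16103 and 27075 units. That sum follows the collagen gene Col1a1, at 9949.9, 4719 and 13715 units. The collagen genes Col1a2, at 2809, 3889.7 and 5371 units, and Col3a1, at 2100.35, 3325 and 3682, were lowest in replicate 1, at 0.607 and 0.599 of the mean of the others, lower than Lyz2 and Csf1r there. Of 8 reference genes, 1 was lower and 1 higher in replicate 1, too few to set apart from the all-gene shares of 8.98% and 8.22%. Their sums were 3913, 4151 and 4165 units, led by Actb, Rplp0 and Ppia. Actb was the lower one, at 0.826 of the mean of the others. B2m, named here because it was the higher one, was at 429, 295 and 348 units. Of 11 interferon-stimulated genes with a mean of at least 10, 11 were higher in replicate 1 (8.22% of all genes). That count too is a description, since the list was chosen with earlier results known. Rnf213 was at 568, 180 and 196 and Oasl2 at 357, 64.4 and 68.8 units. Further members of that list past a log2 range of 1 were Ifit1, Ifit2, Irf7, Ifit3, Bst2, Usp18, Rsad2 and Isg15. The library with the lowest sums of core and resident-type macrophage genes was the one with the highest sum of interferon-stimulated genes, and the part of one in the other was not tested.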

How the data were processed

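Bulk RNA sequencing of 3 DKO libraries was used. The deposited values are gene-level signal, called normalized counts by the authors; per the submitters' processing notes reads were aligned with TopHat2 2.0.8 to mm10. The counting tool, gene annotation, strandedness and filtering were not given in the sources used here. A column was assigned to the library whose name carries its number. Each column was scaled to the same upper quartile, judging from the values; none is 0 and most are not whole, so no count model was used.

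Members and lists were chosen with earlier results of these data known. The text names all members, the 3 highest genes of each other list and list genes with a mean of at least 10 and a log2 range above 1; others are identified, and some genes under this rule are not reported here. Of 189 genes in 14 other lists, 165 were found by symbol. Logarithms are log2(value + 1). Exon lengths came from GENCODE M21 (mm10) for 18982 of 19381 genes and all 38 members. Protein sequences were not used here. Alternatives covered pseudocount, low-value filter, scaling (equal totals, trimmed means, ribosomal RNA and mitochondrial genes removed), length and each library left out. Python 3.11.15, numpy 2.4.6, pandas 2.3.3, scipy 1.17.1 and matplotlib 3.10.9 were used.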

Additional observations from a re-analysis of the deposited data

How the results depend on the processing

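The 15 of 31 members lower in replicate 1 became 5 at a log2 difference of 0.5 (1.79% of all genes), by construction of the stricter rule, 19 without replicate 2 (11.8%) and 12 without replicate 3 (9.47%). It was 13 and 15 with pseudocounts of 10 and 0.1 (5.54% and 9.49%), 15 to 16 under 3 scalings (7.66% to 11.3%), and 10 of 17 and 18 of 38 at a mean of at least 50 and with no filter (7.87% and 11.0%). The median log2 range of 0.38 was 0.15 to 0.33 with a library left out, lowest without replicate 1. With a library left out, 30 to 32 members in place of 31 reached 10 units. The summed efferocytosis and heme genes gave a log2 ratio of replicate 1 to the others of -0.02, and of -0.093 to 0.058 with replicate 2 or 3 left out; this ratio cannot be given without replicate 1. Without division by exon length the differences C1qa minus C1qb, C1qb minus C1qc and Fcer1g minus Tyrobp turned to -0.045, -0.10 and 0.081, since their lengths differ. With the longest coding transcript as length, added after seeing the data, no pair's mean turned. C1qb minus C1qc and Fcer1g minus Tyrobp then no longer had 1 direction in all libraries. Member means moved by less than 1 SD under each of 3 scalings. The scaling factors were only 0.984 to 1.015, so these means could move little, and this is no check of the differences between libraries. Libraries could not be paired between groups because all belong to 1 group. Depth limits statements on members near 1 unit, such as Gpnmb.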
